A study of Mus musculus with 8 samples.

Results

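The 10 genes described here are Prrx1, Twist1, Twist2, Thy1, Pdgfra, Pdgfrb, Lum, Dcn, Postn and Bgn, which mark mesenchymal cells and fibroblasts. They are 10 of the 24354 gene rows of the expression table, and they were chosen from their levels in these same libraries, so their levels and differences are a description. Where a count of these genes called by a test is given, it stands beside the share of all genes called, and no p-value of theirs is given and nothing is read from the count. RNA was sequenced from 4 groups of mouse cells with 2 libraries each, and the level of a gene is given in FPKM, fragments per kilobase of transcript and per 1000000 mapped fragments. The first group, ESCs, is the wild-type embryonic stem cell line E14 in serum and LIF medium. The second, NSCs, is a neural stem cell line heterozygous for the OG2 transgene, a GFP reporter driven by the Oct4 promoter, and for ROSA26, grown with EGF and FGF2 on gelatin. The third, EPSCs, is a wild-type extended pluripotent stem cell line of C57BL/6 origin kept in N2B27-LCDM, a serum-free medium with human LIF and the compounds CHIR99021, minocycline hydrochloride and dimethindene maleate. The fourth, hybrid cells, is a tetraploid line obtained by polyethylene glycol fusion of EPSCs with OG2 and ROSA26 NSCs and kept in the EPSC medium. EPSCs were at passage 15 and hybrid cells at passage 10. ESCs, EPSCs and hybrid cells grew on inactivated mouse embryonic fibroblasts, the feeder cells, and NSCs did not. The paper names the C3H strain for the feeders of EPSCs and hybrid cells and no strain for those of ESCs. Each group is 1 line, so the spread between its libraries says nothing about other lines, and it may be technical. Medium also separates ESCs from EPSCs and hybrid cells, and feeders and medium both separate NSCs from the rest.

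Mesenchymal cells are loosely arranged connective tissue cells that secrete the extracellular matrix, and fibroblasts are their common form in culture. Transcription factors such as PRRX1, TWIST1 and TWIST2 act in the embryonic mesenchyme of limb and head. The receptors PDGFRA and PDGFRB carry the growth signal of platelet-derived growth factors into these cells, and small proteoglycans such as decorin, lumican and biglycan bind collagen fibrils outside them. Pluripotent stem cells are epithelial-like and are commonly grown on a layer of fibroblasts that no longer divide.

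The groups carried the markers of their labels. The summed level of 7 pluripotency genes, Pou5f1 and Nanog among them, was 4526 to 5409 FPKM in the 6 libraries of ESCs, EPSCs and hybrid cells. It was 117 and 120 FPKM in NSCs, where Pou5f1 was listed at 0. Single genes of this list differed more: Zfp42 was at 346 and 335 FPKM in ESCs, 87.4 and 88.4 FPKM in EPSCs and 228 and 201 FPKM in hybrid cells. Nanog was at 310 and 307 FPKM, 352 and 334 FPKM and 315 and 327 FPKM in the same order. The summed level of 8 neural stem cell genes was 3554 and 3610 FPKM in NSCs and 167 to 217 FPKM elsewhere, and Fabp7, which encodes a fatty acid-binding protein of radial glia, was at 2798 and 2709 FPKM in NSCs and at most 0.238 FPKM elsewhere. No library stood apart from its group by these markers. Depth, estimated from the steps of the FPKM values, was 21900000 to 32400000 fragments per library, and 3 fragments of a 2-kb transcript correspond to 0.0515 to 0.0760 FPKM, so that levels below this are not distinguishable from absence.

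Promoter sequences of 6 of the 10 genes were found in RefSeq's table for build GRCm38.p6, and 3 of them are shown because they belong to the paralogs whose levels parted, Twist1 and Twist2, and to the most abundant gene, Bgn. Each sequence is the 250 bases before the transcription start, 5′ to 3′ on the coding strand, which is the plus strand for these genes. The windows are chr12:33957421-33957670 for Twist1, chr1:91801211-91801460 for Twist2 and chrX:73483351-73483600 for Bgn. Capitals mark CANNTG, the E-box letters that basic helix-loop-helix factors such as TWIST1 bind, and TATAAA, both searched on both strands.
Twist1: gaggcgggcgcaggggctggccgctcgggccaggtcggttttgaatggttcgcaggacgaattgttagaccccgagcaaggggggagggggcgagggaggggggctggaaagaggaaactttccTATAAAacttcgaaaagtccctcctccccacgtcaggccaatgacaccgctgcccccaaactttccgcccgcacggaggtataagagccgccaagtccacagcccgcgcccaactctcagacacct
Twist2: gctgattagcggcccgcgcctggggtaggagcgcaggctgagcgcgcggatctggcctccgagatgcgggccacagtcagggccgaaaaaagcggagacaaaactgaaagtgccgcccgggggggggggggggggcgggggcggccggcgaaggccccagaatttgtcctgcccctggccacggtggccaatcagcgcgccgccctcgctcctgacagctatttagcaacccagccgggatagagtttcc
Bgn: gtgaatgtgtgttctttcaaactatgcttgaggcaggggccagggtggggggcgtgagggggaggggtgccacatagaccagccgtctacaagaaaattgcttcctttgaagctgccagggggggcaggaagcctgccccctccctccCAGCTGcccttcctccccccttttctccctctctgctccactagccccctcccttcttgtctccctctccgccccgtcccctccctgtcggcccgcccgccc
The Bgn window held 1 match to CANNTG, beginning 102 bases before the start, and the windows of Twist1 and Twist2 held 0. Over all 32851 promoter windows of this length, 66.2% held CANNTG, so the letters do not set the Bgn window apart. TATAAA was found once in the Twist1 window, 0 times in those of Twist2 and Bgn, and in 12.4% of all windows. Of the other genes with a window, Pdgfra held 1 match to CANNTG, and Prrx1 and Postn held 0. The windows of Pdgfra and Prrx1 precede starts that lie 929 and 1495 bases from the 5′ end of the gene in RefSeq. Of 2 windows listed for Postn, that at its 5′ end was used. A match is a match of letters and says nothing of binding.

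Among the transcription factors, Prrx1 (chromosome 1, 163245119 to 163315145), a paired-related homeobox gene of limb and head mesenchyme, was at 0.735 and 0.892 FPKM in ESCs, 1.92 and 1.96 FPKM in EPSCs, 6.97 and 5.43 FPKM in hybrid cells, and 6.36 and 7.70 FPKM in NSCs. Hybrid cells and NSCs overlapped, and every other pair of groups was apart. The mean of hybrid cells was 3.19 times that of EPSCs, 7.62 times that of ESCs and 0.882 times that of NSCs. In bulk RNA such a difference can come from more cells that make a transcript or from more RNA per cell, and these cannot be told apart.

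Twist2 (chromosome 1, 91801461 to 91848034), a basic helix-loop-helix factor of dermis, was listed at 0 in both NSC libraries, at 0.653 and 0.651 FPKM in ESCs, at 1.52 and 1.30 FPKM in EPSCs, and at 5.63 and 4.21 FPKM in hybrid cells. The groups on feeders did not overlap, and the mean of hybrid cells was 3.49 times that of EPSCs and 7.56 times that of ESCs. Prrx1 and Twist2 kept a similar ratio to each other in all 6 libraries on feeders, with Prrx1 over Twist2 at 1.25 ± 0.173 for ESCs, 1.39 ± 0.174 for EPSCs and 1.26 ± 0.0369 for hybrid cells (SD, n = 2 each).

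Twist1 (chromosome 12, 33957671 to 33959831), the paralog of Twist2 that acts in cranial mesenchyme and neural crest, had another order. It was at 2.08 and 2.06 FPKM in ESCs, 1.24 and 2.75 FPKM in EPSCs, 3.54 and 3.42 FPKM in hybrid cells, and 0.0245 and 0 FPKM in NSCs. The EPSC libraries enclosed the ESC values, and the hybrid libraries lay above both groups, at 1.75 times the EPSC mean and 1.68 times the ESC mean. EPSC library 1 was 0.451 times EPSC library 2 for this gene, a wider gap between replicates than any other of the 10 genes showed on feeders, where the next was 1.73-fold. The ratio of Twist1 to Twist2 was 3.18 ± 0.0182 for ESCs, 1.47 ± 0.919 for EPSCs and 0.721 ± 0.130 for hybrid cells (SD, n = 2 each), so Twist1 was the more abundant paralog in ESCs and Twist2 in hybrid cells, while the EPSC libraries fell on either side of 1.

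**Figure D1:**
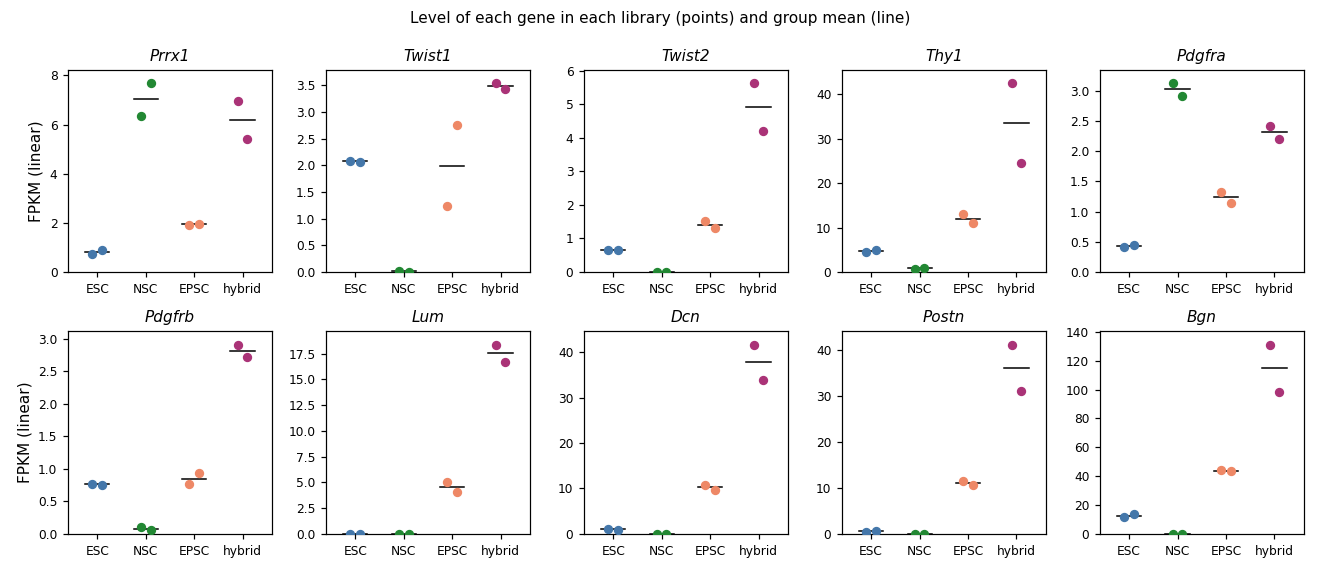
FPKM of each of the 10 genes on linear axes that differ between panels, with a point for each of the 2 libraries of a group and a line at the group mean. Bgn reaches 131 FPKM in hybrid library 1, Lum is listed at 0 in both NSC libraries, and Prrx1 and Pdgfra have their highest means in NSCs.

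Among the surface proteins, Thy1 (chromosome 9, 44043384 to 44048579), the lipid-anchored glycoprotein CD90 carried by fibroblasts and neurons, was at 4.40 and 5.01 FPKM in ESCs, 13.0 and 11.0 FPKM in EPSCs, 42.5 and 24.5 FPKM in hybrid cells, and 0.752 and 0.931 FPKM in NSCs. No groups overlapped, although the hybrid libraries differed from each other 1.73-fold, the largest such gap in hybrid cells. The mean of hybrid cells was 2.80 times that of EPSCs, with a range of 1.89 to 3.88 over the 4 pairs of libraries, and 39.8 times that of NSCs.

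Pdgfra (chromosome 5, 75151322 to 75198206), the receptor for PDGF-A that also marks oligodendrocyte progenitors and primitive endoderm, was at 0.407 and 0.439 FPKM in ESCs, 1.33 and 1.15 FPKM in EPSCs, 2.42 and 2.21 FPKM in hybrid cells, and 3.13 and 2.91 FPKM in NSCs. All 4 groups were apart, with NSCs highest. The hybrid mean was 1.87 times the EPSC mean, 5.47 times the ESC mean and 0.766 times the NSC mean.

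Pdgfrb, the receptor for PDGF-B of pericytes and fibroblasts, was at 0.769 and 0.750 FPKM in ESCs, 0.761 and 0.933 FPKM in EPSCs, 2.90 and 2.71 FPKM in hybrid cells, and 0.108 and 0.0531 FPKM in NSCs. ESCs and EPSCs overlapped, and hybrid cells lay above both, at 3.32 times the EPSC mean and 3.70 times the ESC mean. The ratio of Pdgfra to Pdgfrb was 0.558 ± 0.0404 for ESCs, 1.49 ± 0.362 for EPSCs and 0.824 ± 0.0134 for hybrid cells (SD, n = 2 each), above 1 in EPSCs and below 1 in ESCs and hybrid cells.

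Among the matrix genes, Bgn (chromosome X, 73483601 to 73495936), which encodes the small proteoglycan biglycan, had the highest level of the 10 genes in every group on feeders. It was at 11.9 and 13.4 FPKM in ESCs, 43.9 and 43.3 FPKM in EPSCs and 131 and 98.5 FPKM in hybrid cells, against 0.0320 and 0 FPKM in NSCs. The groups did not overlap, and the hybrid mean was 2.63 times that of EPSCs and 9.06 times that of ESCs.

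Dcn (chromosome 10, 97479500 to 97518163), which encodes decorin, a collagen-binding proteoglycan, was at 1.03 and 0.874 FPKM in ESCs, 10.8 and 9.70 FPKM in EPSCs, 41.7 and 33.9 FPKM in hybrid cells, and 0 and 0.0218 FPKM in NSCs. The EPSC mean was 10.8 times the ESC mean, a larger step than that of Bgn, and the hybrid mean was 3.68 times the EPSC mean. The ratio of Dcn to Bgn was 0.0760 ± 0.0154 for ESCs, 0.235 ± 0.0156 for EPSCs and 0.331 ± 0.0185 for hybrid cells (SD, n = 2 each), with no overlap between groups.

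Lum (chromosome 10, 97565501 to 97572703), the neighbour of Dcn that encodes lumican, was detected in EPSCs and hybrid cells. It was at 0 and 0.0178 FPKM in ESCs, below 3 fragments, at 5.03 and 4.02 FPKM in EPSCs, at 18.4 and 16.7 FPKM in hybrid cells, and it was listed at 0 in both NSC libraries. No ratio to ESCs or NSCs is given. Hybrid cells were at 3.88 times the EPSC mean, and the ratio of Lum to Dcn was 0.440 ± 0.0361 in EPSCs and 0.467 ± 0.0372 in hybrid cells (SD, n = 2 each), whose libraries overlapped. In ESC library 2, where Lum was above 0, the ratio was 0.0203.

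Postn (chromosome 3, 54359267 to 54391041), which encodes the matricellular protein periostin of periosteum and activated fibroblasts, was at 0.409 and 0.608 FPKM in ESCs, 11.5 and 10.5 FPKM in EPSCs, 41.1 and 31.1 FPKM in hybrid cells, and 0 and 0.0237 FPKM in NSCs. The EPSC mean was 21.7 times the ESC mean, with a range of 17.3 to 28.2 over the library pairs, and the hybrid mean was 3.28 times the EPSC mean. This was the largest ratio to ESCs among the 9 genes with one.

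In hybrid cells the order by mean level was Bgn (115 ± 23.0 FPKM), Dcn (37.8 ± 5.50), Postn (36.1 ± 7.07), Thy1 (33.5 ± 12.7), Lum (17.5 ± 1.16), Prrx1 (6.20 ± 1.09), Twist2 (4.92 ± 1.00), Twist1 (3.48 ± 0.0844), Pdgfrb (2.81 ± 0.136) and Pdgfra (2.31 ± 0.150; SD, n = 2 each). Dcn, Postn and Thy1 overlapped as neighbours in this order, as did Prrx1 and Twist2. In ESCs the order was Bgn, Thy1, Twist1, Dcn, Prrx1, Pdgfrb, Twist2, Postn, Pdgfra and Lum, so there Postn had rank 8 and Twist1 rank 3. Dcn, Prrx1 and Pdgfrb overlapped as neighbours in ESCs, as did Postn and Pdgfra, so rank 8 of Postn is not set apart from rank 9. In NSCs only Prrx1 and Pdgfra were above 1 FPKM, and 7 of the 10 genes were at 0.108 FPKM or less in both libraries.

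The comparison of EPSCs with ESCs asks how extended pluripotent cells differ from conventional ones, with both grown on feeders. The libraries of EPSCs lay above those of ESCs for 8 of the 10 genes, where they did for 45.8% of all genes tested, and Twist1 and Pdgfrb overlapped. By limma on log2(FPKM + 1), at a Benjamini-Hochberg adjusted p under 0.05, these 8 genes were called higher, where 33.7% of all 13239 genes tested were called higher in EPSCs. By the study's rule of a mean FPKM over 3 and a ratio over 3, 4 genes were higher (Lum, Dcn, Postn and Bgn), against 1.28% of all genes. The study's methods name these thresholds and its results text names 2 for both. The ratios ran from 0.963 for Twist1 to 21.7 for Postn, a 22.5-fold spread over 9 genes, with the matrix genes above the receptors and transcription factors.

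The comparison of hybrid cells with ESCs shares the ESC libraries with this one. All 10 genes were higher in every hybrid library, where 44.9% of genes tested were, and were called by limma, where 35.3% of genes tested were called higher in hybrid cells, and 7 passed the study's rule, against 1.98% of all genes. Ratios ran from 1.68 for Twist1, whose call was lost in 10 of 14 alternative settings, to 71.1 for Postn. All 10 genes passed the filter of a mean of 1 FPKM in at least 1 group, but Pdgfrb passed through hybrid cells alone and Twist2, Lum, Dcn and Postn through EPSCs and hybrid cells alone, so the filter kept them by the groups where they are high.

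**Figure D2:**
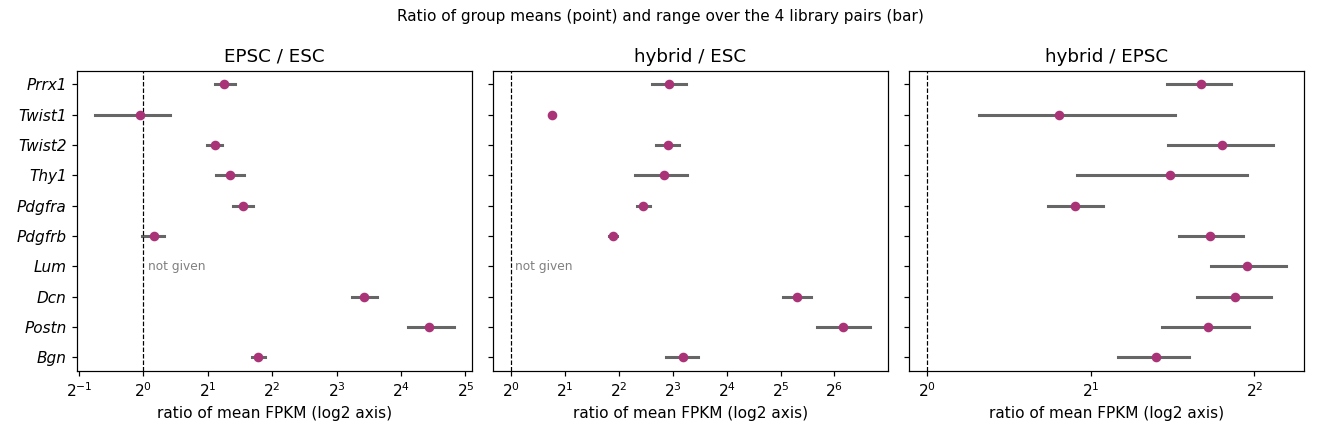
Ratio of group means for each gene, on a log2 axis whose range differs between panels, with a bar over the lowest and highest of the 4 library pairs and a dashed line at a ratio of 1. Against ESCs the ratios of EPSCs span 0.963 to 21.7, and against EPSCs those of hybrid cells span 1.75 to 3.88; no ratio of Lum to ESCs is given.

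The comparison of hybrid cells with EPSCs asks how the fused line differs from this parental cell type, at passage 10 against passage 15. The labels and the paper do not say whether the sequenced EPSC line was the line that was fused. All 10 genes were higher in both hybrid libraries than in both EPSC libraries, where 34.5% of genes tested were, and were called by limma, where 22.5% of genes tested were called higher in hybrid cells. Over all genes and both directions this comparison gave 5881 calls, and 2811 with the 2 groups fitted alone. By the study's rule 5 genes were higher (Prrx1, Twist2, Lum, Dcn and Postn), against 0.567% of all genes, and the count was 2 without hybrid library 1. With thresholds of 2 the count was 8, against 1.95% of all genes. The call of Twist1 was lost in 12 of 14 alternative settings. The ratios lay between 1.75 for Twist1 and 3.88 for Lum, a 2.22-fold spread over 10 genes whose levels in EPSCs ran from 0.847 to 43.6 FPKM.

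Hybrid cells and EPSCs were also set against NSCs, the parental cell type grown without feeders. Hybrid cells were higher than NSCs for 8 genes, Pdgfra was lower and Prrx1 overlapped, where the libraries of 92.7% of genes tested lay apart in either direction, and 9 of the 10 were called in either direction, where 86.5% of genes tested were called. EPSCs were higher for 8 genes and lower for Prrx1 and Pdgfra, at 0.277 and 0.409 times the NSC mean, where the libraries of 92.9% of genes tested lay apart, and all 10 were called, where 86.2% of genes tested were called. By the study's rule 7 and 6 genes differed, against 15.8% and 15.6% of all genes. The direction of Prrx1 and Pdgfra in hybrid cells against NSCs reversed under quantile normalization, and the call of Pdgfra was lost without NSC library 1 while Prrx1 was called lower without hybrid library 1.

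Median log2 fold changes of the 10 genes were 0.94 for EPSCs against ESCs, 2.27 for hybrid cells against ESCs, 1.33 for hybrid cells against EPSCs, 3.37 for hybrid cells against NSCs and 1.99 for EPSCs against NSCs. Over all genes tested the medians were 0.04, 0.04, 0.00, 0.06 and 0.08. Genes at or near 0 in NSCs or ESCs enter these medians with a fitted value that depends on the constant of 1 added to the FPKM and is no bound.

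A list of 28 other fibroblast genes, of which 26 passed the filter, was tested in the same fit. In EPSCs against ESCs 24 were called higher and 0 lower, where 33.7% of all genes tested were higher and 27.3% lower, with a median log2 fold change of 1.06. In hybrid cells against ESCs 23 were higher and 1 lower, and in hybrid cells against EPSCs 21 were higher and 3 lower, with medians of 2.34 and 1.35, where 35.3% and 22.5% of all genes tested were higher and 30.2% and 21.9% lower. In hybrid cells against NSCs 25 were higher and 0 lower, and in EPSCs against NSCs 19 were higher and 4 lower, where 86.5% and 86.2% of all genes tested were called in either direction. These counts hold genes that the filter kept by the difference itself. Mfap5 passed it through EPSCs alone and is counted as higher in EPSCs against ESCs and against NSCs and as lower in hybrid cells against EPSCs. Mfap4 passed it through hybrid cells alone and is counted as higher in all 3 comparisons of hybrid cells. Col3a1, Col6a3 and Loxl1 passed it through EPSCs and hybrid cells alone and are counted as higher in both of these groups against ESCs and against NSCs.

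Collagen genes were among those that rose. Col1a2, a chain of type I collagen, was at 2.06 and 2.34 FPKM in ESCs, 18.0 and 18.0 FPKM in EPSCs, 67.0 and 48.5 FPKM in hybrid cells, and listed at 0 in both NSC libraries. It rose in hybrid cells against EPSCs with a log2 fold change of 1.61 ± 0.14 (SE; limma adjusted p = 0.000321) and in EPSCs against ESCs with one of 2.57 ± 0.14 (limma adjusted p = 1.22e-05). Col3a1, a fibrillar collagen of loose connective tissue, rose by 2.93 ± 0.12 in EPSCs against ESCs (limma adjusted p = 3.99e-06) and by 1.78 ± 0.12 in hybrid cells against EPSCs (limma adjusted p = 0.000133). Because the filter kept Col3a1 through EPSCs and hybrid cells alone, its call against ESCs is not independent of the filter. Col1a1 went from a mean of 53.6 FPKM in hybrid cells to below 0.3 FPKM in both NSC libraries.

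Not every fibroblast gene followed. Ctgf, a secreted matricellular protein of stressed fibroblasts also called Ccn2, was at 76.8 and 122 FPKM in EPSCs, 32.6 and 50.3 FPKM in hybrid cells and 74.4 and 75.6 FPKM in ESCs, and it fell in hybrid cells against EPSCs (log2 fold change -1.24 ± 0.24 SE, limma adjusted p = 0.00610). Pcolce, a procollagen processing enhancer, fell in the same comparison (-0.48 ± 0.06, limma adjusted p = 0.00129). Mfap5, a microfibril protein, was at 1.92 and 1.37 FPKM in EPSCs and 1.21 and 0.548 FPKM in hybrid cells. Pdpn, a podoplanin gene of stroma and other cells, was at 43.2 and 36.0 FPKM in EPSCs and 39.9 and 36.3 FPKM in hybrid cells, and Fstl1, a secreted glycoprotein, at 48.0 and 43.2 FPKM and 58.1 and 37.9 FPKM. Neither passed the test, and both pairs of groups overlapped.

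**Figure D3:**
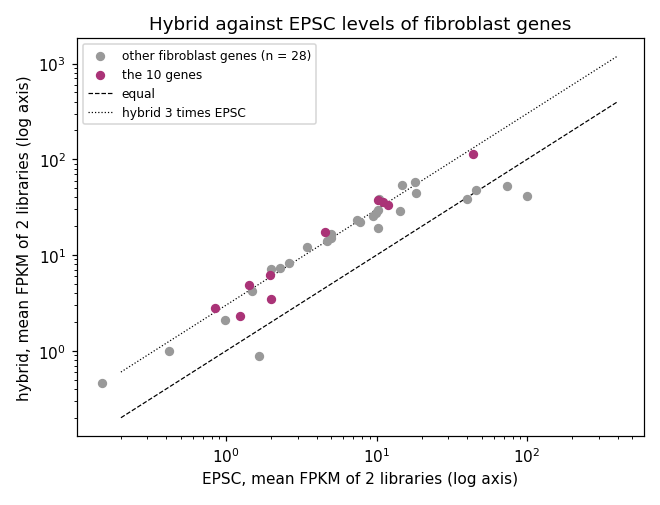
Mean FPKM of 2 libraries in EPSCs and in hybrid cells, on log axes, for the 10 genes and 28 other fibroblast genes, with lines of equal level and of a 3-fold higher level in hybrid cells. The 10 genes lie between ratios of 1.75 and 3.88, and the other fibroblast genes between 0.417 and 3.69 with a median of 2.90.

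Dividing each gene by Col1a2 in the same library compares the proportions among these genes rather than their amount. Prrx1 over Col1a2 was 0.108 ± 0.00131 in EPSCs and 0.108 ± 0.00566 in hybrid cells, against 0.370 ± 0.0173 in ESCs (SD, n = 2 each). Postn over Col1a2 was 0.612 ± 0.0407 in EPSCs and 0.628 ± 0.0199 in hybrid cells, against 0.229 ± 0.0435 in ESCs (SD, n = 2 each). For both genes the EPSC and hybrid libraries overlapped, and the ESC libraries stood apart.

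Bgn, Pdgfra and Dcn did not keep this ratio between EPSCs and hybrid cells. Bgn over Col1a2 was 5.77 ± 0.0228 for ESCs, 2.42 ± 0.0299 for EPSCs and 1.99 ± 0.0527 for hybrid cells, and Pdgfra over Col1a2 was 0.193 ± 0.00686, 0.0687 ± 0.00716 and 0.0408 ± 0.00666 (SD, n = 2 each). Dcn over Col1a2 was 0.438 ± 0.0903, 0.570 ± 0.0447 and 0.661 ± 0.0544, in the same order (SD, n = 2 each). In each of these the 3 groups did not overlap. Thy1 and Twist1 over Col1a2 were highest in ESCs, at 2.14 ± 0.00398 and 0.947 ± 0.0923, and at 0.570 ± 0.0909 and 0.0618 ± 0.0125 in hybrid cells (SD, n = 2 each).

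**Figure D4:**
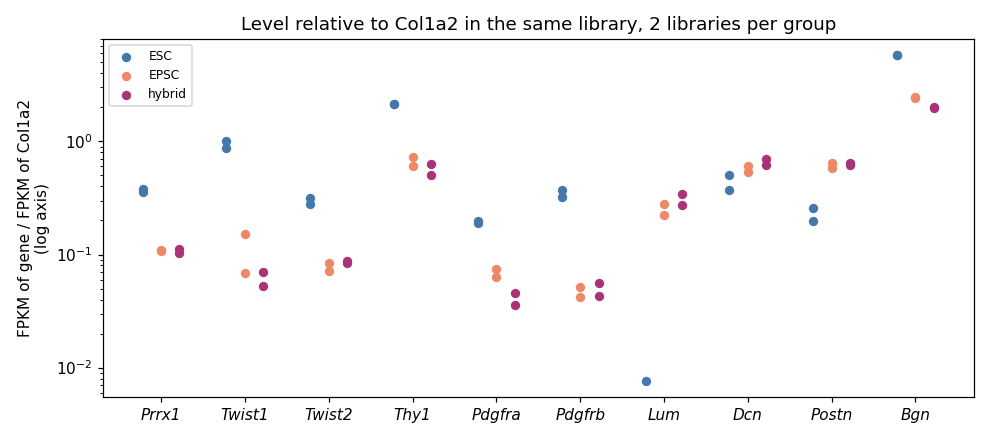
FPKM of each gene divided by the FPKM of Col1a2 in the same library, on a log axis, with 2 libraries for each group on feeders (Lum in ESC library 1 is at 0 and not drawn). ESC points lie above the others for 7 genes, among them Bgn at 5.77, and below them for Lum, Dcn and Postn.

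Other families around these genes were counted in the same fit. Of 25 other mesenchymal transcription factors 12 passed the filter, and 7 of these rose and 0 fell in hybrid cells against EPSCs, while 3 rose and 4 fell in EPSCs against ESCs. Over all genes tested 22.5% were called higher and 21.9% lower in the first comparison, and 33.7% higher and 27.3% lower in the second. Hic1, a transcriptional repressor of quiescent mesenchymal progenitors, was at 0.804 and 0.830 FPKM in EPSCs and 2.19 and 1.73 FPKM in hybrid cells. Msx2, a homeobox gene of limb and skull mesenchyme, was at 1.42 and 1.82 FPKM in ESCs and 0.347 and 0.289 FPKM in EPSCs. Of the calls counted, Hic1 and Tbx15 passed the filter through hybrid cells alone and Msx2 through ESCs alone, so they had to differ. Snai2, called lower in EPSCs against ESCs and higher in hybrid cells against EPSCs, passed it through ESCs and hybrid cells alone. Osr2, called higher in EPSCs against ESCs, passed it through EPSCs and hybrid cells alone. The filter thus kept Snai2 and Osr2 by the groups where they are high. Tcf21, a factor of visceral fibroblasts, was listed at 0 in every library.

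TWIST proteins bind DNA as dimers with E proteins, and ID proteins sequester those partners. All 7 genes of these partners and inhibitors passed the filter, and in hybrid cells against EPSCs 1 rose, where 22.5% of all genes tested were called higher, 2 fell, where 21.9% were called lower, and 4 did not pass. Tcf12, an E protein, was at 13.8 and 13.3 FPKM in EPSCs and 13.4 and 12.3 FPKM in hybrid cells, and had risen in EPSCs against ESCs (1.21 ± 0.07 SE, limma adjusted p = 1.68e-05). Id2 fell from 24.9 and 33.4 FPKM in EPSCs to 4.79 and 10.1 FPKM in hybrid cells (-1.89 ± 0.28, limma adjusted p = 0.00211), and Id3 rose from 67.4 and 64.5 to 145 and 85.4 FPKM (0.75 ± 0.20, limma adjusted p = 0.0220). The partner Tcf3 was the other gene that fell (-0.28 ± 0.05, limma adjusted p = 0.00324), and Tcf4, Id1 and Id4 did not pass.

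The PDGF ligands moved in both directions. Pdgfa, the ligand of PDGFRA, was at 53.3 and 56.3 FPKM in ESCs, 109 and 95.3 FPKM in EPSCs and 90.2 and 69.8 FPKM in hybrid cells, and it rose in EPSCs against ESCs (0.88 ± 0.12 SE, limma adjusted p = 0.000587) and in hybrid cells against ESCs (0.53 ± 0.12, limma adjusted p = 0.00593) and fell in hybrid cells against EPSCs (-0.36 ± 0.12, limma adjusted p = 0.0446). Pdgfc fell as well in the last comparison (-0.36 ± 0.10, limma adjusted p = 0.0202). Against ESCs Pdgfc fell in EPSCs (-0.37 ± 0.10, limma adjusted p = 0.0122) and in hybrid cells (-0.74 ± 0.10, limma adjusted p = 0.000414). Pdgfb was at 0.775 and 0.698 FPKM in EPSCs and 0.440 and 0.609 FPKM in hybrid cells and did not pass between them (limma adjusted p = 0.0797). It was called lower against ESCs in both groups, but it passed the filter through ESCs alone, so it had to differ. Pdgfd was too low to be tested.

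Of 14 other small leucine-rich proteoglycans only Prelp and Tsku passed the filter. Tsku, a secreted inhibitor of several growth factors, was at 9.13 and 5.76 FPKM in EPSCs and 14.5 and 10.7 FPKM in hybrid cells (0.71 ± 0.20 SE, limma adjusted p = 0.0248). Aspn, the gene of asporin and close relative of Dcn and Bgn, was at 0.212 and 0.182 FPKM in EPSCs and 1.36 and 0.512 FPKM in hybrid cells, and was not tested. Epyc and Kera, proteoglycans of cartilage and cornea, were at 0 in every library apart from Kera in hybrid library 1, at 0.0477 FPKM.

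Of 8 matricellular genes 7 passed the filter, and in hybrid cells against EPSCs 4 rose, where 22.5% of all genes tested were called higher, and 1 fell, where 21.9% were called lower. Tgfbi, the paralog of Postn, was at 9.79 and 9.20 FPKM in ESCs, 1.53 and 1.79 FPKM in EPSCs and 3.08 and 3.80 FPKM in hybrid cells, so that it fell in EPSCs against ESCs (-1.98 ± 0.12 SE, limma adjusted p = 1.93e-05) where Postn was higher. Tnc, the gene of the matrix protein tenascin C, was at 2.81 and 2.95 FPKM in ESCs, 23.3 and 25.1 FPKM in EPSCs, 75.2 and 55.0 FPKM in hybrid cells and 261 and 268 FPKM in NSCs, and it rose in hybrid cells against EPSCs (1.37 ± 0.13, limma adjusted p = 0.000393). Thbs1 and Sparc also rose, Spp1, the gene of osteopontin, fell (-0.63 ± 0.07, limma adjusted p = 0.000719), and Fn1, the gene of fibronectin, did not pass (limma adjusted p = 0.384), at 157 and 162 FPKM in EPSCs and 171 and 164 FPKM in hybrid cells. The study measured Postn, Bgn, Tnc, Csf1, Vcam1, Steap4 and Esrp1 by qPCR as genes proposed to differ between EPSCs and ESCs. Its figure legend describes Tnc, Bgn, Vcam1 and Postn as similar in hybrid cells and EPSCs. Its text also describes the EPSC-specific genes as higher in hybrid cells. In the libraries here Postn and Bgn were higher in hybrid cells than in EPSCs, as given above. Tnc, Csf1, Vcam1 and Steap4 rose in the same comparison, and Steap4 passed the filter through hybrid cells alone. Esrp1, an epithelial splicing factor, fell (-1.06 ± 0.20 SE, limma adjusted p = 0.00504).

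Of the 3236 genes with group means at least 2 apart on the log2(FPKM + 1) scale, the 10 nearest by profile to the mean of the 10 genes over 8 libraries were Wisp1, Slc4a5, Plau, 4930591A17Rik, Ccl2, Mmp14, Tm4sf1, Agtr2, Angptl2 and Col6a3. Pearson's r ran from 0.998 to 0.991 over 8 libraries that share their 4 groups, and 86 genes were above 0.95. Ccl2, a chemokine, was at 5.09 and 4.40 FPKM in ESCs, 15.1 and 14.5 FPKM in EPSCs, 74.2 and 52.9 FPKM in hybrid cells and 1.72 and 2.57 FPKM in NSCs. Mmp14, a membrane-bound collagenase, was at 11.8 and 12.3 FPKM in EPSCs and 31.5 and 24.9 FPKM in hybrid cells. Of the 10 genes themselves, Prrx1 and Pdgfra were least like the mean profile, with r of 0.29 and 0.22, and Twist1 was at 0.75.

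Embryonic fibroblasts are known to express these genes. No library of feeder cells alone was analysed here. In the groups on feeders, RNA of feeder cells and RNA made by the cultured line thus cannot be told apart for any of the 10 genes. The 10 genes were chosen from their levels, so their sums are a description. In NSCs, the one group grown without feeders, they summed to 10.4 and 11.6 FPKM, nearly all of it Prrx1 and Pdgfra, against 22.4 and 24.7 FPKM in ESCs, 91.1 and 86.6 FPKM in EPSCs and 296 and 223 FPKM in hybrid cells. The 28 other fibroblast genes summed to 140 and 135 FPKM in NSCs, 220 and 227 FPKM in ESCs, 409 and 438 FPKM in EPSCs and 737 and 574 FPKM in hybrid cells. What part feeder cells had in these sums was not tested.

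Trunk and limb Hox genes mark the body position of fibroblasts. Of a list of 12, those at or above 0.0760 FPKM, the highest level that 3 fragments stood for, were 6 and 7 in ESCs, 10 and 11 in EPSCs, 10 and 12 in hybrid cells and 2 in each NSC library. They summed to 1.59 and 1.63 FPKM in ESCs, 2.48 and 2.35 FPKM in EPSCs and 7.82 and 5.97 FPKM in hybrid cells, whereas the 20.8 and 23.6 FPKM of NSCs were nearly all Hoxa5 and Hoxa7. Hoxc6 was at 0.491 and 0.691 FPKM in EPSCs and 2.95 and 2.44 FPKM in hybrid cells, and Hoxc8 at 0.418 and 0.422 FPKM and at 1.42 and 0.730 FPKM. Both passed the filter through hybrid cells alone, Hoxa5 and Hoxa7 passed it through NSCs alone and did not pass the test in hybrid cells against EPSCs (limma adjusted p = 0.739 and 0.679), while both were called lower against NSCs in hybrid cells and in EPSCs, where the filter fixed the direction, and the other 8 were too low to be tested. What part Hox-positive cells had in the levels of the 10 genes was not tested.

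The libraries of hybrid cells also differed in step. Hybrid library 1 was above hybrid library 2 for 10 of the 10 genes, with a median ratio of 1.26 and a range of 1.03 to 1.73, and for 26 of the 28 other fibroblast genes, with a median ratio of 1.34, where 52.8% of all genes tested were higher in library 1 and the median ratio was 1.01. In EPSCs library 1 was higher for 7 of the 10 genes with a median ratio of 1.10, where 52.7% of all genes tested were. Library 1 was higher for 4 of the 10 genes in ESCs and for 4 in NSCs, where library 2 was also higher for 4. Of the 28 other fibroblast genes 16 were higher in EPSC library 1, with a median ratio of 1.03. Of the 28 other fibroblast genes 22 were higher in ESC library 2, with a median ratio of library 1 to library 2 of 0.919, where 52.5% of all genes tested were higher in library 1. The 10 genes and the other fibroblast genes thus varied together between libraries of 1 hybrid line, and a cause was not tested.

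**Figure D5:**
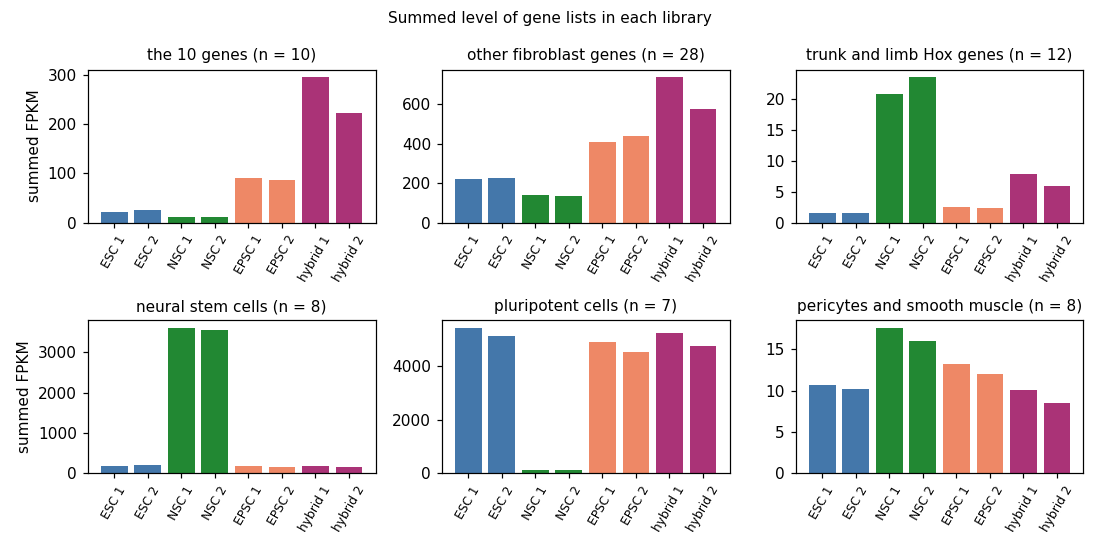
Summed FPKM of marker lists in each of the 8 libraries, as bars from 0 on axes that differ between panels. The 10 genes and the 28 other fibroblast genes are highest in hybrid library 1, at 296 and 737 FPKM. Neural stem cell genes are highest in NSCs, and the sum of pluripotency genes is similar in all libraries but those of NSCs.

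Lists of markers of other cell types moved in several ways. Genes of pericytes and smooth muscle, which also express Pdgfrb, summed to 10.7 and 10.2 FPKM in ESCs, 13.2 and 12.1 FPKM in EPSCs and 10.1 and 8.50 FPKM in hybrid cells, with Rgs5 at 0 in EPSCs and hybrid cells and Abcc9 at most 0.0190 FPKM. Primitive endoderm genes, which matter for Pdgfra, summed to 21.0 and 20.7 FPKM in ESCs, 18.0 and 18.6 FPKM in EPSCs and 21.2 and 18.6 FPKM in hybrid cells, mostly from Lama1, Col4a1 and Dab2. The endoderm factor Gata4 fell from 0.806 and 0.790 FPKM in EPSCs to 0.117 and 0.193 FPKM in hybrid cells (-0.64 ± 0.07 SE, limma adjusted p = 0.000740), and Col4a1, a basement membrane collagen, rose (0.39 ± 0.13, limma adjusted p = 0.0444). Oligodendrocyte progenitor genes, which also accompany Pdgfra, summed to 992 and 1003 FPKM in NSCs, 14.8 and 16.1 FPKM in EPSCs, 9.70 and 9.94 FPKM in hybrid cells and 0.435 and 0.376 FPKM in ESCs. These sums are mostly Olig1 and Olig2, and Cspg4 was at 0.241 and 0.221 FPKM in EPSCs and 0.327 and 0.391 FPKM in hybrid cells (limma adjusted p = 0.133). Endothelial genes summed to 26.3 and 28.1 FPKM in ESCs, 23.3 and 27.9 FPKM in EPSCs, 30.1 and 43.4 FPKM in hybrid cells and 0.281 and 0.284 FPKM in NSCs, mainly from Pecam1, which pluripotent cells share, with Cdh5 at most 0.0464 FPKM. In hybrid cells against EPSCs Pecam1 rose (0.58 ± 0.18 SE, limma adjusted p = 0.0341) and Tek, an angiopoietin receptor, fell (-0.52 ± 0.11, limma adjusted p = 0.00833). The blood list, mainly Cd68, summed to 27.3 and 26.3 FPKM in ESCs, 5.73 and 6.23 FPKM in EPSCs and 15.3 and 15.1 FPKM in hybrid cells. Cartilage and bone genes summed to 0.677 and 0.699 FPKM in ESCs, 1.85 and 2.26 FPKM in EPSCs and 3.06 and 2.68 FPKM in hybrid cells, and Runx2, the osteoblast factor among them, was at 0.256 and 0.550 FPKM in EPSCs and 1.01 and 1.08 FPKM in hybrid cells. Acan, the gene of aggrecan, was at 0.661 and 0.655 FPKM in EPSCs and 0.544 and 0.558 FPKM in hybrid cells, and Col2a1 overlapped between them. The part of the cells that these lists mark was not tested.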

How the data were processed

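Poly-A RNA of 8 libraries was sequenced as stranded paired-end reads. The authors trimmed the reads with skewer, aligned them to mm10 with STAR 2.7.9a and deposited FPKM per gene and library from Cuffnorm of Cufflinks 2.2.1, with replicates not pooled. The annotation, strand setting and library normalization are not given in the sources used here, so overlapping antisense reads are uncertain. Columns were matched to libraries by name, and gene positions came from RefSeq (GRCm38).

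Here the 4 groups were fitted together with limma 3.58.1 (R 4.3.3; trend, two-sided) on log2(FPKM + 1) for the 13239 genes with a mean of at least 1 FPKM in at least 1 group, with 4 residual and 3.25 prior degrees of freedom and Benjamini-Hochberg adjustment at 0.05. Fold changes are on that scale and understate low genes. The p-values rest on the spread between libraries of the same line, pooled over the 4 groups, and not on a spread between lines. In a comparison of 2 groups, the libraries of the other groups thus also set this spread. An exact permutation test of 2 against 2 cannot go below 0.333. Ratios of means, with nothing added, are given where both means reach 0.1 FPKM. Depth was estimated from FPKM steps of 2247 genes, assuming fragments of 200 nt.

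The 10 genes and all gene lists were chosen with earlier results of these data known. Named beside them were, per list, up to 4 genes by level in hybrid cells or size of change (all of a list of 8 or fewer), some others picked after their values were seen because they overlap, fall or are at 0, and the 10 genes nearest in profile. Alternatives were a constant of 0.1, no filter, rescaling, quantile normalization, 2 groups per fit, the replicate number as a block, thresholds of 2, and each library left out. The fit was tested on simulated data. Python 3.11.15 was used with pandas 2.3.3.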

Additional observations from a re-analysis of the deposited data

How the results depend on the processing

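Counts of the 10 genes called by limma moved by at most 1 from the values given, over 14 alternatives in each of 5 comparisons, and counts of the other fibroblast genes stayed within 1.5 times. Calls over all genes in hybrid cells against EPSCs fell from 5881 to 2811 with the 2 groups fitted alone. The other comparisons lost fewer calls under this setting. EPSCs against ESCs had 8079 calls in the joint fit and 8050 alone. For hybrid cells against ESCs the counts were 8667 and 8199, and for EPSCs against NSCs 11409 and 11336. Why these losses differed was not tested. By the study's rule, 8 genes passed in hybrid cells against EPSCs with thresholds of 2, and 2 to 7 with a library left out. The log2 fold change of Twist1 in EPSCs against ESCs ran from -0.45 to 0.29 with a library left out. Under quantile normalization Prrx1 and Pdgfra in hybrid cells against NSCs came to 0.18 and 0.037. Over the alternatives their lowest log2 fold changes in this comparison were -0.75 and -0.84. Scaling to a sum of 1000000 took the median change against NSCs over all tested genes to log2 values of -0.48 for EPSCs and -0.50 for hybrid cells, from 0.08 and 0.06. Over these alternatives the log2 fold changes of the 10 genes kept direction and side of the threshold in 671 cases, lost the call in 23, gained it in 3 and reversed in 3. Depth limits values under 0.0760 FPKM, as in NSCs. The cause was not tested.

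Replicate numbers alone do not show a pairing of libraries: deviations of same-numbered libraries correlated at 0.280 for hybrid cells and EPSCs and at -0.017 to 0.069 elsewhere. With the replicate number as a block, 8, 10, 10, 9 and 10 of the 10 genes were called in EPSCs against ESCs, hybrid cells against ESCs, hybrid cells against EPSCs, hybrid cells against NSCs and EPSCs against NSCs, as without it, and 24, 24, 21, 25 and 19 of the other fibroblast genes. The labels name no shared culture or day for a number.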
